A study of Homo sapiens with 16 samples.

Results

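The regions described here are H3K27ac regions that lie between genes, yet within 100 kb of a protein-coding gene, and that were lost or gained when O-GlcNAc transferase (OGT) was inhibited. The cells were LX-2, a line established from human hepatic stellate cells and of myofibroblastic phenotype (MF-HSC), grown in serum-containing medium and given vehicle (DMSO, hereafter control) or 50 µM OSMI-1, a small-molecule OGT inhibitor (hereafter OGTi), for 24 h. H3K27ac ChIP-seq was made from 4 control and 4 OGTi cultures, so every value refers to a single cell line and a single dose and time. The ChIP inputs served the authors as controls for calling peaks, and the libraries that the labels call CoP, with their inputs, gave no value used here. The authors deposited a list of regions that lost and a list of regions that gained H3K27ac under OGTi, and each list gives a chromosome, a start and an end only. Fold changes, replicate values and read depth are therefore not known for any region, the precision below is set by the number of regions, and the labelled cell type could not be checked against marker genes.

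A listed region was kept when no base of it came within 2500 bp of the 5′ end of any GENCODE gene, when its centre was in no annotated gene, and when its centre was no more than 100 kb from the 5′ end of the nearest protein-coding gene (hg38, GENCODE release 44). This left 788 of the 7130 listed regions, 500 lost and 288 gained. The rule used position only, so direction, sequence and neighbours were free to vary. Each region is named below after its nearest protein-coding gene, which is a statement of place: no measurement here links a region to the transcription of that gene. At the edges of the rule, the member farthest from a protein-coding 5′ end was a lost region 99.7 kb from ENTREP2 and the first region beyond the bound was a gained region 100.05 kb from FOXL1. The member closest to any gene's 5′ end left a gap of 2505 bp.

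H3K27ac is an acetylation of histone H3 found at active promoters and enhancers, and between genes it chiefly marks enhancers, stretches of DNA where transcription factors bind and act on promoters at a distance. OGT adds N-acetylglucosamine to serines and threonines of nuclear and cytoplasmic proteins, among them transcription factors and chromatin regulators. In MF-HSC, the main matrix-producing cells of the fibrotic liver, enhancers are bound by factors such as TEAD, which recruits the Hippo pathway effectors YAP and TAZ, by AP-1, the FOS and JUN dimers, and by SRF, which drives actin and contractile genes. ATF4, with C/EBP partners, acts on genes of the amino acid and endoplasmic reticulum stress responses.

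The following stretches of hg38 show what such regions hold. All are written 5′ to 3′ on the plus strand, with the motif match in capitals (as its reverse complement where the match is on the minus strand), and each was taken from the match nearest to the centre of its region. The lost regions at POSTN (periostin, a matricellular protein of activated fibroblasts), BMP4, FST (follistatin, an activin antagonist), DAB2 (an endocytic adaptor) and WNT11 are shown for the extended TEAD motif, searched as ACATTCCA, ACATTCCT, GCATTCCA and GCATTCCT.
POSTN, lost, 20.0 kb upstream, chr13:37618971-37619031: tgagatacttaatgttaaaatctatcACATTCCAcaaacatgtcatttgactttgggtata
BMP4, lost, 40.5 kb upstream, chr14:53999161-53999221: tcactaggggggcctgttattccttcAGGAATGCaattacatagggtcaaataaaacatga
FST, lost, 76.8 kb upstream, chr5:53403866-53403926: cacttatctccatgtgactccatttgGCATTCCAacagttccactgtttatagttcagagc
DAB2, lost, 38.6 kb upstream, chr5:39500866-39500926: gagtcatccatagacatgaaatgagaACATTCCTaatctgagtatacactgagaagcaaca
WNT11, lost, 25.8 kb downstream, chr11:76184723-76184783: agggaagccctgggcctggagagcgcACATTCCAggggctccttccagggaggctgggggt

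Gained regions at STC2 (stanniocalcin 2, a stress-induced secreted protein), FTH1 (ferritin heavy chain, which stores iron), ANKRD1 (a YAP target and muscle ankyrin repeat protein), IL1A (interleukin 1 alpha) and KLF4 (a zinc finger factor) are shown for the ATF4-C/EBP composite, searched as TGATGCAA. The lost region at POSTN is added because it held the same letters.
STC2, gained, 5.80 kb upstream, chr5:173334054-173334114: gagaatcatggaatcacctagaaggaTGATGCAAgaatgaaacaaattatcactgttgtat
FTH1, gained, 5.50 kb upstream, chr11:61972879-61972939: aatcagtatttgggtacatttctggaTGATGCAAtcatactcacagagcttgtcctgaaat
ANKRD1, gained, 9.62 kb upstream, chr10:90929677-90929737: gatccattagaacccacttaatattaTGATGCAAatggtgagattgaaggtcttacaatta
IL1A, gained, 9.67 kb upstream, chr2:112794299-112794359: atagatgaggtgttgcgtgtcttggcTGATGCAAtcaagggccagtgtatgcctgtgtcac
KLF4, gained, 58.1 kb upstream, chr9:107548479-107548539: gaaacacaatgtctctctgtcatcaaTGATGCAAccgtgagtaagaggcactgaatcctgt
POSTN, lost, 20.0 kb upstream, chr13:37617972-37618032: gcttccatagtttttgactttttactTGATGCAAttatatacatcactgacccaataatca

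AP-1 matches, searched as TGACTCA, were found in both directions and are shown from the gained regions at CXCL8 (the chemokine interleukin 8) and E2F7 (a repressor of E2F target genes) and the lost region at FBLN2 (fibulin 2, a matrix protein). The CArG box bound by SRF is shown from a lost region at ACKR3 (a scavenging receptor for the chemokine CXCL12).
CXCL8, gained, 35.4 kb upstream, chr4:73705267-73705327: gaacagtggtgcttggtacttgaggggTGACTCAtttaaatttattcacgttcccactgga
E2F7, gained, 55.1 kb upstream, chr12:77120254-77120314: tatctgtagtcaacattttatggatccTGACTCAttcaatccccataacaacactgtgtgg
FBLN2, lost, 9.53 kb upstream, chr3:13538746-13538806: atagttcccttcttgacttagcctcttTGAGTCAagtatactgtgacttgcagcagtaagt
ACKR3, lost, 76.3 kb downstream, chr2:236643893-236643953: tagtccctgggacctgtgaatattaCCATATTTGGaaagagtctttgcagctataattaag

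The first question was whether lost regions made up a larger share of the listed regions between genes than of those elsewhere. Unchanged regions are on neither list, so how often H3K27ac between genes was lost or gained is not known. Of the 788 regions, 63.5% were lost (95% Wilson interval, 60.0 to 66.7%), against 47.3% of the other 6331 listed regions on the same chromosomes (odds ratio 1.93, Fisher's exact test, two-sided p = 1.2e-17). The share lay between those of its neighbours in place. In introns of protein-coding genes 50.8% of 2618 regions were lost (odds ratio of the intergenic regions against them 1.68, Fisher's exact p = 3.24e-10). In intergenic regions farther than 100 kb from a protein-coding gene the share was higher, 71.8% of 596 (odds ratio 0.681, Fisher's exact p = 0.00121). Regions within 2500 bp of a gene's 5′ end showed the opposite majority, with 33.5% lost of 2209.

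**Figure D1:**
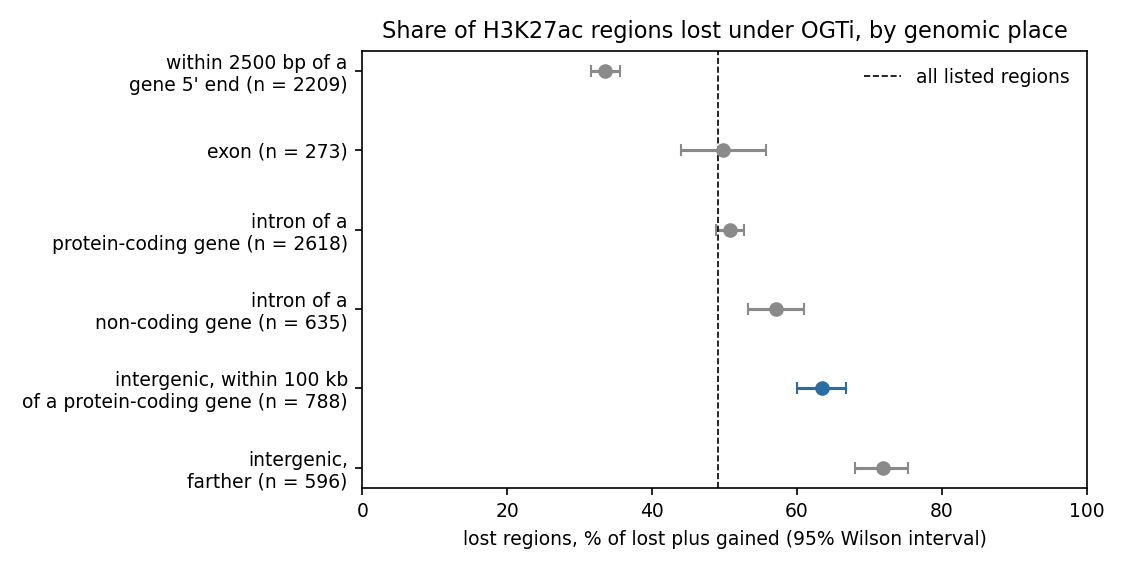
Share of listed regions that were lost (x axis, % of lost plus gained) for 6 classes of genomic place; points are shares, bars 95% Wilson intervals over regions, and the dashed line is the share in all listed regions. The intergenic regions near protein-coding genes (blue, 63.5%) sit between intronic regions of protein-coding genes (50.8%) and the farther intergenic regions (71.8%).

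Lost regions were not confined to a few chromosomes. The lost share ranged from 46.2% on chromosome 16 (6 of 13) to 100% on chromosome 21 (5 of 5), and 0 of 23 chromosomes differed from the others after Benjamini-Hochberg adjustment. At an unadjusted p the count was also 0, the smallest being that of chromosome 14, where 20 of 24 regions were lost (Fisher's exact p = 0.051, adjusted p = 0.378).

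Neighbouring regions mostly went the same way. With members chained into loci where successive centres lay within 50 kb of each other, the 788 regions formed 578 loci, of which 440 held a single region. Of the 138 loci with several regions, 87 were lost throughout, 41 gained throughout and 10 mixed. The mixed loci included those at COL8A1 (3 lost, 1 gained), EDN1 (1 lost, 2 gained), CCN1, SMURF2 and FOXD1 (1 of each). Regions that abut were cut from longer stretches by the authors' binning, which fixes part of this sharing: joining abutting members of the same direction left 712 stretches. The locus counts above are of regions before joining.

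ACKR3 had 7 lost regions and no gained region, all downstream of its 5′ end, from 40.2 to 94.1 kb, and the promoter of ACKR3 was itself on the lost list. SH2D4A, an SH2-domain adaptor, had 5 lost regions 13.3 to 23.6 kb upstream, and its promoter was lost as well. DAB2 had 5, in blocks of 3 and 2 between 36.4 and 52.7 kb upstream. FST had 4 between 56.6 and 82.5 kb upstream. Promoters of DAB2 and FST were on neither list. IER5, an immediate early gene, had 3 lost regions upstream and 1 downstream, all within 15.01 kb, and a lost promoter. RAB40AL, a Rab-like GTPase gene, had 4 at 23.9 to 39.5 kb, and TMEM170B, a membrane protein gene, had 4 at 49.1 to 76.7 kb. CPA1, which encodes a pancreatic carboxypeptidase, had 3 within 11.2 kb and a promoter on neither list. These are counts of listed regions, some of which abut. Among them are all 3 of CPA1, the 3 of IER5 upstream and those of ACKR3 at 74.2 and 76.3 kb.

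Among the gained regions, E2F7 had 5 gained regions 39.1 to 57.0 kb upstream and a gained promoter. MLPH, encoding melanophilin of melanosome transport, had 4 between 10.8 and 25.8 kb upstream. CTSL, the lysosomal protease cathepsin L, had 3 within 11.9 kb, and MKNK2, a kinase of the translation factor eIF4E, had 3 within 10.6 kb. Those of MKNK2 at 9.02 and 10.6 kb abut. PHLDA1, NRP1 (neuropilin 1, a coreceptor for VEGF and semaphorins) and FGF5 had 3 each, those of FGF5 lying side by side from 26.96 to 30.98 kb upstream. TMEM44 had 3, from 58.4 to 63.0 kb. Promoters of PHLDA1 and NRP1 were on the gained list, whereas those of CTSL, MKNK2, MLPH, FGF5 and TMEM44 were on neither list.

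**Figure D2:**
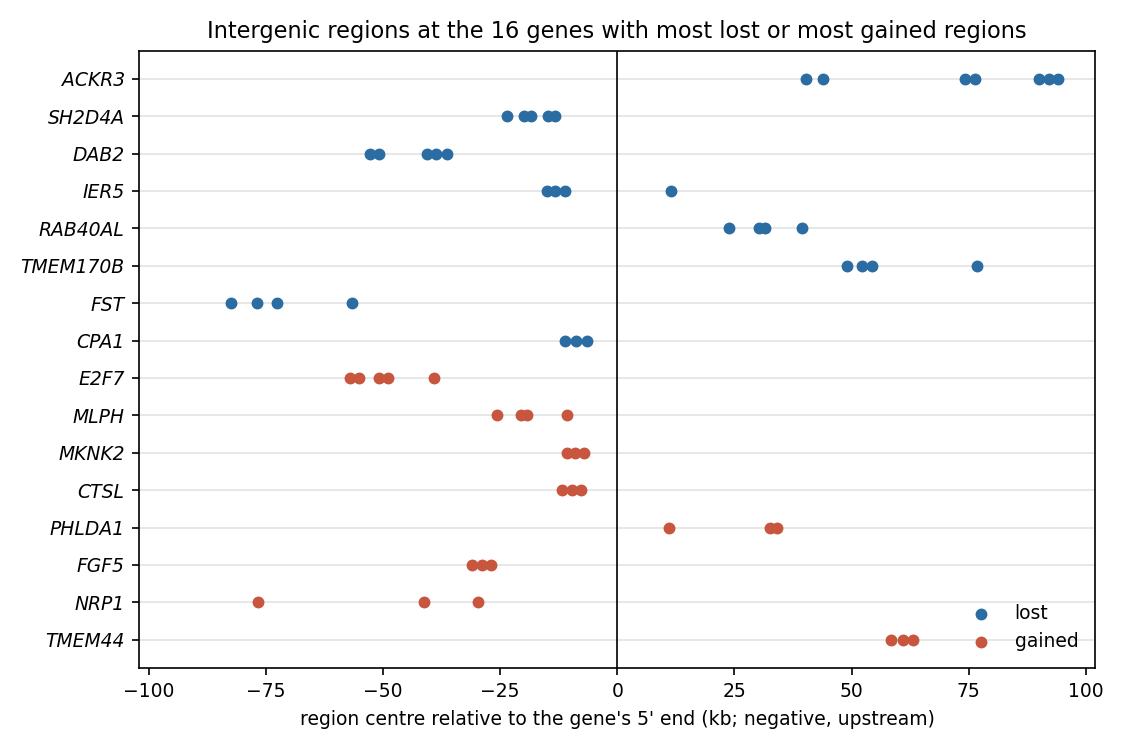
Position of each region (points) relative to the 5′ end of its nearest protein-coding gene (x axis, kb, negative values upstream) at the 8 genes with most lost regions (blue) and the 8 with most gained regions (red). No gene among the 16 has regions of both directions, and ACKR3 has the most, 7.

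In all, 585 protein-coding genes were nearest to at least 1 region. Of these, 355 had lost regions only, 218 gained regions only and 12 both. As 443 of the 585 had a single region, those could not have both. Of all 788 regions 63.5% were lost. Among the 142 genes with more than 1 region, 87 had lost regions only and 43 gained regions only.

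The direction of an intergenic region was mostly that of the nearest gene's promoter, where that promoter was listed at all. Promoters here are listed regions within 2500 bp of the gene's 5′ end. For 622 of the 788 regions, 407 lost and 215 gained, the promoter of the nearest gene was on neither list. Of the other 166, 73 lost regions lay by a lost promoter and 20 by a gained one, while 3 gained regions lay by a lost promoter and 70 by a gained one. The direction was thus shared by 86.1% (143 of 166; odds ratio 85.2, 95% interval with errors clustered by locus 17.1 to 425, Fisher's exact p = 2.34e-24). Over all protein-coding promoters listed in a single direction, 23.4% (392 of 1673) were lost. Limited to regions over 10 kb from the 5′ end, the direction was shared by 108 of 130 (odds ratio 51.0, Fisher's exact p = 1.62e-16).

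**Figure D3:**
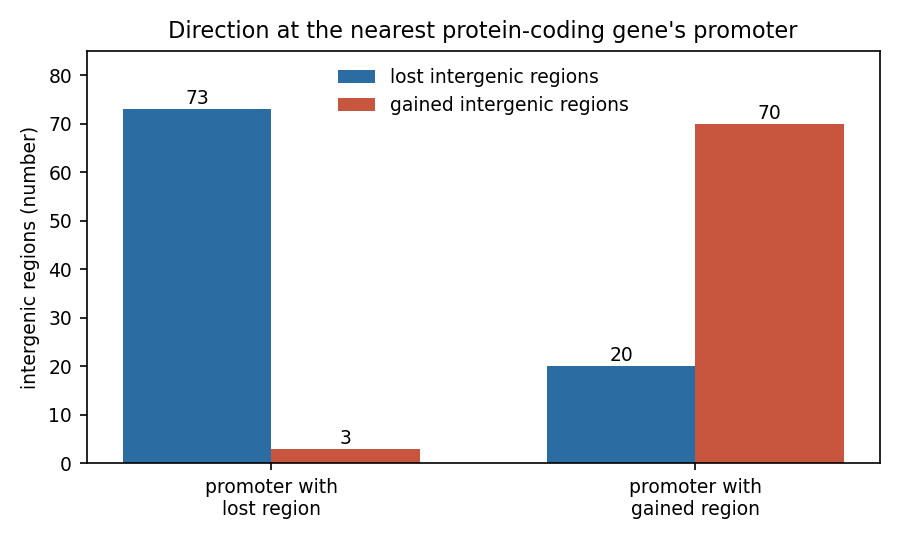
Number of intergenic regions (y axis) by the direction of the listed promoter of their nearest protein-coding gene, for lost (blue) and gained (red) intergenic regions. Lost regions stand mostly by lost promoters (73 against 20) and gained regions by gained promoters (70 against 3).

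Pairs of lost promoter and lost intergenic region included those of BMP4 (2 regions, 40.5 and 42.0 kb), FBLN2 (4.63 and 9.53 kb), CCDC80 (3.65 and 27.8 kb), SULF2 (5.59 and 23.2 kb), FZD2 (29.99 and 42.5 kb) and SNAI1 (6.37 and 47.2 kb). BMP4 is a morphogen of the TGF-beta family, SULF2 an extracellular sulfatase, FZD2 a WNT receptor and SNAI1 a factor of mesenchymal transition. The 2 regions of BMP4 abut. Gained pairs included CXCL8 (35.4 and 37.1 kb), DDIT4 (13.3 and 23.9 kb), FTH1 (5.50 and 77.9 kb), GADD45A (4.05 and 4.16 kb), ANXA1 (7.89 and 33.1 kb) and NR2F2 (22.1 and 24.1 kb). DDIT4 is a stress-induced inhibitor of mTORC1, GADD45A a stress and DNA damage response gene, ANXA1 encodes annexin A1, and NR2F2 is an orphan nuclear receptor. The 3 gained regions by a lost promoter were at EDN1 (56.7 and 81.7 kb), which encodes endothelin 1, and LOXL1 (30.7 kb), a crosslinking enzyme of elastin and collagen; these genes were singled out after their values were seen. Lost regions by a gained promoter included PDGFC (27.3 kb), a PDGF ligand, and TARS1 (96.7 kb), a threonyl-tRNA synthetase.

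Listed regions of other classes showed the same over a limited range. Promoter regions were among them, and regions that abut a member were not left out, so the authors' binning can fix part of the sharing within 50 kb. For 296 regions the nearest listed region outside the class lay within 50 kb, and a lost neighbour was found for 82.6% of the lost against 15.2% of the gained ones (odds ratio 26.5, 95% interval clustered by locus 12.6 to 55.7, Fisher's exact p = 1.34e-31). At 50 to 200 kb these shares were 56.3% and 33.0% (odds ratio 2.61, 1.41 to 4.83, Fisher's exact p = 0.00019). Beyond 200 kb they were 37.1% and 45.6% (odds ratio 0.704, 0.36 to 1.38, Fisher's exact p = 0.244).

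Gene groups of fibrosis and stress were then read by their nearest regions. Of the lists named here, some are those that the study used, most of which came from other publications, and the others were written for this purpose. The share lost in each is to be read against the 63.5% of all 788 regions. The number of genes reached in each is to be read against 585 of all 19970 protein-coding genes. Collagens and collagen-processing enzymes had 10 lost and 3 gained regions at 9 of 38 genes. COL8A1 had 3 of the lost regions (58.8 to 68.8 kb) and 1 of the gained (95.01 kb), COL18A1 had 2 lost (36.8 and 42.8 kb) and COL13A1 had 1 lost (32.8 kb). Gained regions stood by LOX (11.0 kb), the lysyl oxidase that crosslinks collagen, and by LOXL1. Other matrix proteins had 7 lost and 2 gained regions: POSTN had 3 lost regions side by side from 17.7 to 22.3 kb upstream, FBLN2 and THBS2 (thrombospondin 2, 80.7 and 83.0 kb) had 2 each, and EFEMP1 (61.5 kb) and NID1 (32.0 kb) had 1 gained region each. The study's liver fibrosis matrisome had 10 lost and 2 gained regions at 8 of 71 genes, the gained ones at EFEMP1 and CTSB (7.31 kb). Matrix proteases and inhibitors were even, with lost regions by MMP2 (22.03 kb) and MMP17 (24.3 kb) and gained regions by MMP13 (40.3 kb) and SERPINE2 (62.9 kb).

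The study's fibrogenic MF-HSC genes had 13 lost and 7 gained regions at 16 of 162 genes. TNFAIP2 (10.7 kb) and RIN1 (9.27 kb) had 1 lost region each, ANKRD1 (9.62 kb) had 1 gained region, and EDN1 had both. Its liver fibrosis genes had 11 lost and 5 gained, 5 of the lost being those of DAB2. Its MF cell identity genes had 29 lost and 18 gained regions at 27 of 127 genes, that is 61.7% lost, within the interval of all the regions. Its heart, kidney and lung fibrosis genes had 12 lost and 6 gained, with gained regions by GREM1 (12.1 kb), a BMP antagonist, FAP (16.4 kb), the fibroblast activation protein, and CD27 (14.0 kb).

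Among signalling genes, the TGF-beta and BMP list had 13 lost and 2 gained regions at 10 of 53 genes. The lost regions included the 4 of FST, the 2 of BMP4 and 1 by NOG (3.29 kb), which encodes the BMP antagonist noggin; the gained regions stood by GREM1 and SMURF2 (46.7 kb), a ubiquitin ligase of SMAD signalling. WNT signalling genes had 6 lost regions, 2 by WNT7B (19.9 and 25.9 kb), 2 by FZD2 and 1 by WNT11 among them, and 1 gained region, by FZD8 (14.9 kb). Actin cytoskeleton genes had 6 lost regions, 1 by PDLIM1 (17.7 kb) and 1 by TAGLN2 (9.16 kb) among them, and 1 gained region, by RND3 (53.1 kb). Receptor tyrosine kinases and ligands had 4 lost regions, by EPHA2 (21.1 kb) and PDGFC among others, and 6 gained regions, by FGF5 (3), KDR (2, at 50.0 and 58.9 kb) and FGF16 (4.61 kb). The Hippo pathway and YAP-TEAD target list had 7 lost and 5 gained regions, 58.3% lost, near the 63.5% of all the regions. AMOTL2, which encodes a YAP-binding angiomotin, had 2 lost regions (43.3 and 51.8 kb) and LATS2, a kinase that restrains YAP, had 1 (16.3 kb). GADD45A and ANKRD1 had gained regions only, and CCN1 and NT5E had 1 of each direction.

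The lists of stress and cell cycle genes held more gained than lost regions, on small counts. Genes of the amino acid and endoplasmic reticulum stress responses had 4 gained regions, 2 by DDIT4 and 1 each by STC2 (5.80 kb) and SLC7A11 (10.0 kb), the cystine transporter, and 1 lost region, by TARS1. Oxidative stress and heat shock genes had 3 gained regions and 0 lost, 2 by FTH1 and 1 by TKT (14.4 kb), a pentose phosphate enzyme. Cell cycle and survival genes had 9 gained regions, 5 of them by E2F7, 2 by GADD45A and 1 by BCL6 (21.9 kb), and 1 lost region, by GADD45B (15.8 kb). Integrins and adhesion genes had 4 gained regions, 3 by NRP1 and 1 by ALCAM (4.21 kb), and 0 lost. Cytokine, chemokine and NF-kB genes had 9 lost and 8 gained regions. NFKBIA, the inhibitor of NF-kB, had 3 lost regions (9.86 to 48.4 kb), TNFRSF11B, the decoy receptor osteoprotegerin, had 2 (41.8 and 43.8 kb) and SOCS3 had 1 (6.50 kb). CXCL8 had 2 gained regions, and IL1A (9.67 kb) and CCL20 (12.9 kb) had 1 each. AP-1 and immediate early genes had 7 lost regions, 4 by IER5, 1 by JUND (10.6 kb) and 1 by FOSL2 (36.0 kb), and 6 gained regions, by KLF2 (13.9 kb), DUSP1 (26.8 kb) and KLF4 among others. Mesenchymal transcription factors had 4 lost regions, 2 by SNAI1, 1 by LHX2 (77.0 kb) and 1 by FOXD1 (75.4 kb), and 5 gained, 2 each by NR2F2 and FOXL1 (9.56 and 55.3 kb) and 1 by FOXD1 (82.6 kb). Lipid genes had 1 lost and 1 gained region, the gained region by PLIN2 (34.95 kb).

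Differences in place between lost and gained regions were small. The median distance to the nearest protein-coding 5′ end was 31.5 kb for lost and 29.4 kb for gained regions. The shares within 25 kb were 40.4% among lost and 45.5% among gained regions (odds ratio 0.812, 95% interval clustered by locus 0.574 to 1.15, Fisher's exact p = 0.178). With the 5′ ends of all transcripts in place of those of genes, this odds ratio was 0.741 (Fisher's exact p = 0.039). The shares upstream of the gene were 70.6% among lost and 70.5% among gained regions (odds ratio 1.01, 0.682 to 1.48, Fisher's exact p = 1). The nearest gene of any kind was non-coding for 60.2% and 58.7% (odds ratio 1.07, 0.749 to 1.51, Fisher's exact p = 0.706). Long non-coding RNAs were the nearest gene of 160 lost and 73 gained regions.

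**Figure D4:**
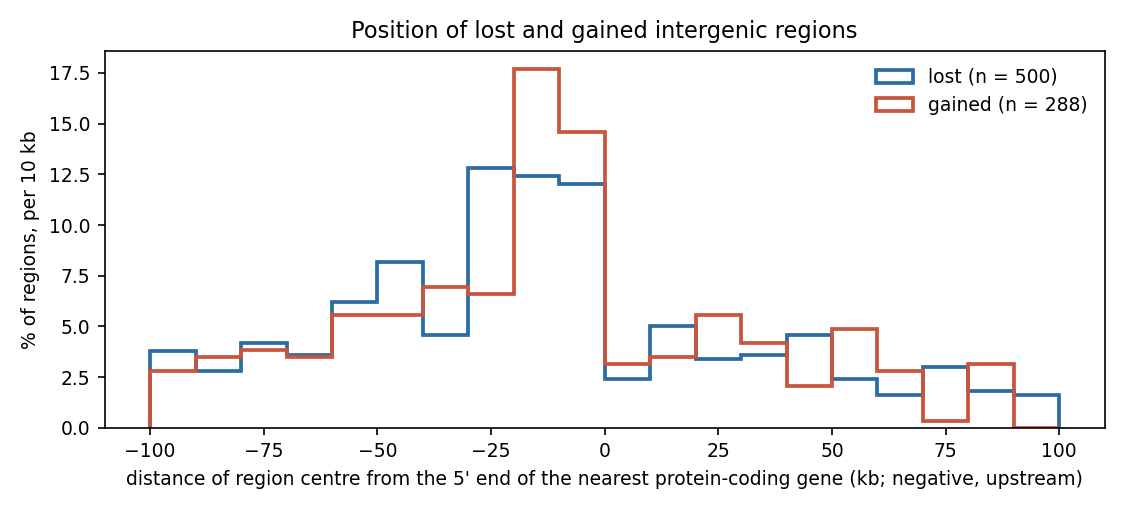
Distance of region centres from the 5′ end of the nearest protein-coding gene (x axis, kb, negative values upstream) for the 500 lost (blue) and 288 gained (red) regions, as % of regions of each direction per 10 kb. In both, most regions (70.6 and 70.5%) lie upstream.

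Lost regions were slightly wider and richer in G and C. The median width was 1869 bp for lost and 1767 bp for gained regions, a mean difference of 0.16 on the log2 scale (95% interval 0.02 to 0.29, linear model with errors clustered by locus, n = 788 regions, p = 0.0211). With 1 region per locus and direction it was 0.14 (n = 588 regions, p = 0.0981). Mean GC content was 48.1% ± 7.39 (SD over 500 regions) in lost and 44.6% ± 6.63 (SD over 288 regions) in gained regions, a difference of 3.51 percentage points (2.22 to 4.80, n = 788, clustered p = 1.01e-07). In windows of the same width centred 10 kb to either side, free of listed regions, the difference was 1.26 points (0.123 to 2.39, n = 1474 windows, clustered p = 0.0298). Among the farther intergenic regions it was 1.76 points (difference of differences 1.75, -0.106 to 3.62, n = 1384 regions, p = 0.0646). Among intronic regions of protein-coding genes it was 4.38 points, also without a difference from the intergenic regions that passed the test (difference of differences -0.869, -2.34 to 0.601, n = 3406 regions, p = 0.247). Among promoter-proximal regions it was -0.892, and there the difference from the intergenic regions was 4.40 points (2.82 to 5.99, n = 2997 regions, p = 5.4e-08). The CpG ratio, observed over expected from base composition, averaged 0.213 in lost and 0.2 in gained regions (difference 0.0128, -0.00504 to 0.0307, n = 788, clustered p = 0.159). At the promoters of the nearest genes no difference of this kind passed the test: of the 469 of 585 genes with a RefSeq promoter sequence (GRCh38.p14, 250 bases before to 50 after the start), a CpG ratio of at least 0.6 was found at 66.5% of those with lost regions only and 71.6% of those with gained regions only (odds ratio 0.789, 0.523 to 1.19, Fisher's exact p = 0.302).

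Sequence was then searched for 26 motifs on both strands, and the share of regions with at least 1 match was compared between directions, with Benjamini-Hochberg adjustment over the 26. A match is a run of letters, not a bound site, and repeats were not masked. After adjustment 3 motifs favoured lost regions and 2 favoured gained regions. The same test on the other 6331 listed regions gave 13 motifs (50% of the 26) and 5 motifs (19.2% of the 26). Smaller differences pass with more regions, so these counts do not compare the strength of the contrasts.

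The ATF4-C/EBP composite TGATGCAA, shown above at STC2, FTH1, ANKRD1, IL1A and KLF4, was more frequent in gained regions. It was in 39 of 288 gained regions (13.5%, 95% Wilson interval 10.1 to 18.0%) and 27 of 500 lost regions (5.4%, 3.74 to 7.74%), an odds ratio of 0.364 for lost against gained (0.217 to 0.613 clustered by locus, Fisher's exact adjusted p = 0.00376). Windows of the same width 10 kb away held it in 4.55%, so lost regions were near that level and gained regions above it. With width and GC content as covariates the odds ratio was 0.34 (logistic model clustered by locus, n = 788, adjusted p = 0.00214). In the central 1000 bp it was 0.204 (Fisher's exact adjusted p = 4.71e-05), and with 1 region per locus 0.344 (adjusted p = 0.00655). Regions with 2 matches were 4 gained and 0 lost, and STC2 was 1 of these. Other gained regions with the composite stood by SERPINE2 and CCL20, and lost ones by COL8A1, FST, IER5, MMP2, POSTN and WNT7B. Of 7119 listed regions 7.3% held it.

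MEF2, the motif of the myocyte enhancer factors, was rare and also more frequent in gained regions, with 20 of 288 (6.94%) against 11 of 500 (2.2%; odds ratio 0.301, 0.144 to 0.632, Fisher's exact adjusted p = 0.0134), beside 4.34% of the windows 10 kb away and 3.68% of all listed regions. With width and GC content as covariates the odds ratio was 0.306 (logistic model clustered by locus, n = 788, adjusted p = 0.0245). With 1 region per locus it was 0.342 (Fisher's exact adjusted p = 0.0588), and in the central 1000 bp 0.281 (Fisher's exact adjusted p = 0.0763).

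The TEAD core CATTCC was in 382 of 500 lost regions (76.4%, 72.5 to 79.9%) and 193 of 288 gained regions (67.0%, 61.4 to 72.2%; odds ratio 1.59, 1.15 to 2.21, Fisher's exact adjusted p = 0.0243), against 59.5% of the windows 10 kb away and 66.1% of all listed regions. This difference kept its direction but did not pass the test with width and GC content as covariates (odds ratio 1.41, 0.959 to 2.09, logistic model clustered by locus, n = 788, adjusted p = 0.26). The same was so with 1 region per locus (1.52, n = 588, Fisher's exact adjusted p = 0.126). The extended TEAD motif, which contains the core, was in 45.6% of lost and 36.5% of gained regions, beside 28.0% of the windows 10 kb away and 35.1% of all listed regions (odds ratio 1.46, 1.09 to 1.95, Fisher's exact adjusted p = 0.0584); in the central 1000 bp the shares were 36.0% and 26.0% (adjusted p = 0.0286). At least 3 core matches were found in 23.8% of lost and 15.97% of gained regions, with 3 in the FST region 76.8 kb upstream and 4 in the DAB2 region 38.6 kb upstream. Gained regions were not without it: the E2F7 region 39.1 kb upstream held 4 matches and the NRP1 region 29.8 kb upstream held 5.

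AP-1 matches were frequent in both directions, in 44.4% of lost and 50.0% of gained regions against 24.8% of the windows 10 kb away and 41.1% of all listed regions (odds ratio 0.799, 0.601 to 1.06, Fisher's exact adjusted p = 0.326). In the central 1000 bp the shares were 33.8% and 44.8% (odds ratio 0.629, Fisher's exact adjusted p = 0.02). At least 2 matches were in 12.4% of lost and 20.8% of gained regions. The gained CXCL8 region 35.4 kb upstream held 3, and the gained region at NID1 held 11, the most of any. Around the NID1 match nearest the centre, a run of letters holding part of the motif recurred within 61 bases, and repeats were not masked. Pairs of a TEAD core and an AP-1 match in the same region had shares of 36.0% (lost) and 37.5% (gained; odds ratio 0.938, Fisher's exact p = 0.701).

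The SRF CArG box was in 14.0% of lost and 10.4% of gained regions, with 8.68% of the windows 10 kb away and 11.2% of all listed regions (odds ratio 1.4, 0.882 to 2.22, Fisher's exact adjusted p = 0.326). In the central 1000 bp it was in 10.2% and 4.86% (odds ratio 2.22, Fisher's exact adjusted p = 0.0439). ACKR3 had a match in 2 of its 7 lost regions. The other motifs more frequent in lost regions were the nuclear receptor motif AGGTCA (74.2% against 63.5%, adjusted p = 0.0134) and the E-box CAGCTG (65.4% against 53.8%, adjusted p = 0.0134, both Fisher's exact), found in 71.4% and 48.5% of the windows 10 kb away and in 65.4% and 57.1% of all listed regions. With width and GC content as covariates their odds ratios were 1.36 (n = 788, adjusted p = 0.31) and 1.16 (adjusted p = 0.622). Beside lost regions, AGGTCA was in 73.7% of the windows 10 kb away and CAGCTG in 52.0%. Beside gained regions these shares were 67.4% and 42.3%, so the windows differed in the same direction as the regions. None of the remaining motifs passed in whole regions. The lowest adjusted p among them was that of the NFI motif TTGGCA, found in 65.6% of lost, 57.6% of gained, 58.4% of all listed regions and 54.6% of the windows 10 kb away (Fisher's exact adjusted p = 0.0998).

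**Figure D5:**
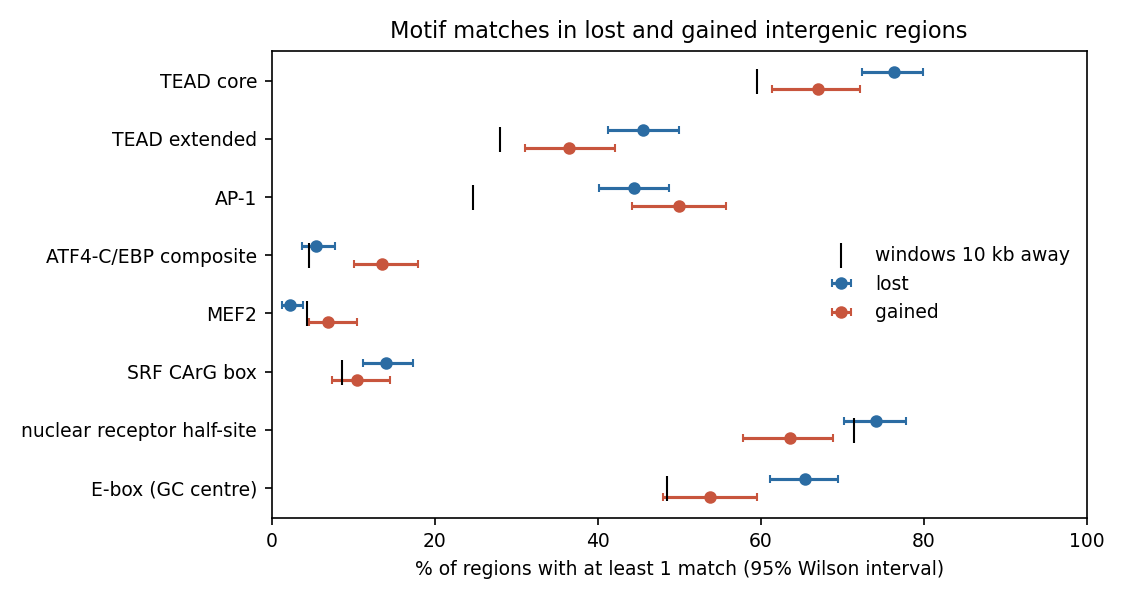
Share of regions with at least 1 match (x axis, %) for 8 motifs in lost (blue, n = 500) and gained (red, n = 288) regions; bars are 95% Wilson intervals over regions, black ticks are windows of the same width 10 kb away, and the E-box is CAGCTG. The ATF4-C/EBP composite stands apart in gained regions (13.5% against 5.4%), while TEAD, AP-1 and CArG matches shares lie above the ticks in both directions.

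For the TEAD core and the ATF4-C/EBP composite, no difference of the contrast from that in other places passed the test. The TEAD core odds ratio of 1.59 compared with 1.85 in the farther intergenic regions (ratio of odds ratios 0.863, 0.525 to 1.42, logistic model clustered by locus, n = 1384 regions, p = 0.561) and with 1.90 in introns of protein-coding genes (ratio 0.838, 0.582 to 1.21, n = 3406, p = 0.342). The ATF4-C/EBP odds ratio of 0.364 compared with 0.551 in the farther intergenic regions (ratio 0.661, 0.289 to 1.51, n = 1384, p = 0.328) and 0.321 in those introns (ratio 1.14, 0.615 to 2.1, n = 3406, p = 0.684). Against regions within 2500 bp of a gene's 5′ end the ratios were 0.871 for the TEAD core (0.601 to 1.26, n = 2997, p = 0.465) and 0.765 for the composite (0.393 to 1.49, n = 2997, p = 0.43). The extended TEAD motif gave a ratio of 0.696 there (0.49 to 0.99, n = 2997, unadjusted p = 0.0438), which did not pass after adjustment over 12 motif and class pairs (adjusted p = 0.263, n = 2997). The intervals for the core and the composite leave room for differences in either direction.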

How the data were processed

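H3K27ac ChIP-seq of LX-2 cells (4 control and 4 OGTi cultures, single-end reads) had been mapped by the authors with Chromap to hg38, with peaks called against input with MACS2 (version 2.1.1.20160309 in the submitters' processing notes; deepTools 2.0 is also named there) and compared in bins with MAnorm2, so that long peaks are cut into adjoining regions. The deposited lists hold positions in 3 columns and no other unit; per the labels of the lists, the adjusted p threshold was 0.15, whereas the methods state 0.05. Depth is unknown, and intervals cover the number of regions only. The 11 regions outside chromosomes 1 to 22 and X, all lost, were not used.

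Regions were classed with GENCODE release 44 (62062 genes, 19970 protein-coding), and loci chained members with centres within 50 kb. Shares were compared by two-sided Fisher's exact tests, with odds ratio intervals from logistic models with errors clustered by locus, and means by linear models with the same clustering (Python 3.11.15, scipy 1.17.1, statsmodels 0.14.6). The Fisher tests treat regions as independent, which regions of a locus are not. Windows 10 kb away numbered 1474. The scripts were tested on simulated data. The alternatives were 1 region per locus, other bounds, all transcript 5′ ends, central 1000 bp windows and covariates.

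Genes were named by rule: for each direction the 8 genes nearest to most regions, and for each of 21 gene lists (5 from the study) the 3 with most; ties went to the shortest distance. A few genes that the rule names are not reported here. Members, lists and motifs were chosen with earlier results of these data known. Class tests for motifs other than the TEAD core, the neighbour, promoter CpG and distance splits were added after the data were seen.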

Additional observations from a re-analysis of the deposited data

Results flagged for a closer look

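The AP-1 contrast differed from that in regions within 2500 bp of a gene's 5′ end. The odds ratio of an AP-1 match in lost against gained regions was 0.799 in the intergenic regions near protein-coding genes and 1.52 in regions within 2500 bp of a gene's 5′ end, where a match was found in 36.9% (lost) and 27.8% (gained). The ratio of these odds ratios was 0.525 (95% interval 0.373 to 0.74, logistic model clustered by locus, n = 2997 regions, adjusted p = 0.00283 over 12 motif and class pairs). In the farther intergenic regions the AP-1 odds ratio was 0.845 (ratio 0.945, 0.602 to 1.48, same model, n = 1384, p = 0.807). In introns of protein-coding genes it was 0.894 (ratio 0.893, 0.645 to 1.24, same model, n = 3406, p = 0.496). The contrast was thus not particular to the intergenic regions near protein-coding genes.

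The ATF4-C/EBP contrast differed with distance. Within 25 kb of the nearest protein-coding 5′ end the composite was found in 2.97% of lost (6 of 202) against 16.8% of gained regions (22 of 131), and from 25 to 100 kb in 7.05% (21 of 298) against 10.8% (17 of 157). The odds ratio was 0.152 within 25 kb (0.0605 to 0.38, Fisher's exact p = 2.05e-05). From 25 to 100 kb it was 0.624 and did not pass the test (0.315 to 1.24, Fisher's exact p = 0.211). The ratio of the odds ratios was 0.243 (0.0772 to 0.765, logistic model clustered by locus, n = 788 regions, adjusted p = 0.0468 over 3 motifs). Gained regions with the composite within 25 kb included those of STC2, FTH1, ANKRD1, IL1A and CCL20. Both splits were chosen after the data were seen.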

How the results depend on the processing

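No paired analysis was possible because the deposited lists hold no replicate values; for the same reason no replicate could be left out and no stricter threshold applied. The lost share against other listed regions (odds ratio 1.92 to 2.02), the GC difference (3.13 to 3.53 points), the ATF4-C/EBP composite and the direction shared with the promoter (odds ratio 51.0 to 85.2) kept their direction and their side of the threshold under each alternative run. Moving the 100 kb bound to 50 or 200 kb, or the 2500 bp window to 1000 or 5000 bp, gave 345 to 655 lost and 201 to 361 gained regions, with 62.5 to 65.0% lost. With 1 region per locus and direction, the width difference was 0.14 (n = 588 regions, p = 0.0981), the TEAD core odds ratio 1.52 (adjusted p = 0.126), and 1 motif passed in lost (CAGCTG) and 1 in gained regions (the ATF4-C/EBP composite). With width and GC content as covariates the TEAD core odds ratio was 1.41. In the central 1000 bp the AP-1 odds ratio was 0.629 (Fisher's exact adjusted p = 0.02). With all transcript 5′ ends the share within 25 kb had an odds ratio of 0.741 (Fisher's exact p = 0.039) and the upstream share turned to 0.832 (p = 0.222). A CpG ratio bound of 0.5 turned the promoter odds ratio to 1.03. Motifs that did not pass in either setting turned direction as follows: with 1 region per locus, FOX 1.17, CTCF 1.28, RBPJ 0.98 and heat shock element 1.17; with covariates, NF-kB 0.813, SP/KLF 0.637, CACGTG 0.941 and RBPJ 0.894; in the central 1000 bp, NF-kB 0.996. Where a result changed, the cause was not tested.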
